A study of Caenorhabditis elegans with 2 samples.

Results

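The terminal effector genes of motor neurons described here are 10 named genes, unc-129, dbl-1, madd-4, del-1, unc-8, nca-1, slo-2, glr-4, glr-5 and avr-15, of 19973 protein-coding genes on the 6 nuclear chromosomes. They were taken by name, and the window of each ran from 2000 bp upstream of its annotated 5' end to its 3' end. For 9 of the 10 the symbol is in the annotation used, Ensembl release 115 on WBcel235; nca-1 was taken as the gene annotated unc-77 (locus C11D2.6, WBGene00006809), from general knowledge of the gene and not from the annotation. The chromatin came from whole late embryos of Caenorhabditis elegans strain RW12259, which the labels give as obtained by egg bleaching and 2.5 hours old. The worms carry the allele st12259[unc-3::TY1::EGFP::3xFLAG] II, in which the transcription factor UNC-3 is fused to TY1, EGFP and 3xFLAG tags, and per the description an anti-GFP antibody pulled the fusion protein down. The labels name unc-3 as the gene targeted by CRISPR insertion and yet place the allele on chromosome II, whereas unc-3 is annotated on X. There is 1 group of 2 biological replicates, with no untagged or input sample used here, so no groups were compared. Whole embryos were used, so motor neurons are at most a minority of the cells. The peak lists do not show which classes of motor neuron were present at this age. A site bound in few cells cannot be told apart from one bound weakly in many.

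UNC-3 belongs to the COE proteins, named for Collier, Olf and EBF, which bind DNA as transcription factors. It is known as the terminal selector of cholinergic motor neurons: it directly switches on, through a short palindromic COE sequence, genes that a mature neuron needs, called terminal effector genes. These include secreted signals, ion channels and neurotransmitter receptors, and the 10 genes are ordered here by these roles.

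The deposited lists give a signal value for each peak, and its summit. How that signal was defined, and in which unit, no source used here gives. In what follows, the main list is the conservative list of both replicates (631 peaks) and the ranked list is the longer list of both replicates that holds all 631 main peaks (30297 peaks). Each replicate also has its own ranked list, with 33914 peaks in replicate 1 and 34079 in replicate 2. Rank 1 is the highest signal, and signals of the list of both replicates are not on the scale of those of 1 replicate. The ranked lists reach far below what the authors' threshold kept. The irreproducible discovery rate (IDR) of a peak is the expected share that do not reproduce among peaks scored at least as reproducible. It does not strictly follow the rank by signal used here. Main peaks had an IDR of at most 0.00996, and most ranked peaks had a higher one. The files give no read counts, so the depth of the libraries is unknown.

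None of the 10 genes held a main summit. The share was 0 of 10 (95% Clopper-Pearson interval 0 to 30.8%), beside 718 of 19973 protein-coding genes (3.59%). With 10 genes, a count of 0 cannot set them apart from so small a share. The genes were also chosen with earlier results of these data known. Their windows were longer, with a median of 11112.5 bp against 4027 bp for all genes. The other thresholded list of both replicates and the thresholded list of each replicate held 0 summits in the windows too, where 3.52%, 2.06% and 2.06% of all genes had one. The nearest main summit lay 20779 bp from the window of nca-1, the closest case, and 370418 bp from that of unc-8, the farthest, with a median of 131352 bp.

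The sequence of the COE family, searched as TCCC, any 2 bases, then GGGA, was found in 3 windows, those of dbl-1, del-1 and glr-4, with 1 site each. The pattern reads the same on both strands, so each site was counted once. Over all protein-coding genes 350 windows (1.75%) held a site. The windows of the 10 genes were longer (median 11112.5 bp, against 4027 bp for all genes), and per 10 kb of window they held 0.259 sites, against 0.0349 for all genes. UNC-3 target genes have partly been found in the literature through this sequence, so this excess is not an independent finding, and it was not tested. The sites are shown with 10 bases on each side, 5' to 3' on the strand of the gene, the site in capitals, because only 1 of them, that of glr-4, had a ranked summit near it:
dbl-1 exact site, chrV:6757050-6757079, plus strand: ccttgcacaaTCCCTCGGGAtcaattcatc
del-1 exact site, chrX:14271824-14271853, plus strand: tgattcgctgTCCCTTGGGAgatatttttc
glr-4 exact site, chrII:7794467-7794496, minus strand: tttctgatctTCCCTTGGGAgttcattcct

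The sites of del-1 and glr-4 have the same 10 bases, TCCCTTGGGA, which, counted with its reverse complement, is found 66 times in the genome. The glr-4 site is intergenic, 159 bp upstream of the 5' end, and its centre lay 36.5 bp from a summit of the ranked list, inside the peak. The del-1 site is in an intron, 3757 bp downstream of the first 5' end and 730 bp downstream of a later one, and the nearest ranked summit was 1995.5 bp away. The dbl-1 site is intergenic, 1071 bp upstream of the 5' end, with the nearest ranked summit 2319.5 bp away. In the lists of single replicates the del-1 site was 611.5 bp from a summit of replicate 1 and 2478.5 bp from one of replicate 2, and the dbl-1 site 1294.5 and 2239.5 bp. Sites that have the same bases thus differed in whether a ranked summit lay beside them. The glr-4 summit had an IDR of 0.909 and an overlapping peak in replicate 2 alone, so this difference rests on a weak peak. It was not tested. Of the 3 sites, 1 lay within 100 bp of a ranked summit, beside 115 of the 390 such sites in the genome (29.5%). Counted by gene, 1 of 10 had such a site, beside 0.536% of all genes.

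A relaxed COE pattern, which allows either pyrimidine at the first base and either purine at the last, added 2 sites, so that 5 of the 10 windows held one, beside 4.31% of all gene windows. With this pattern too 1 gene, glr-4, had a site within 100 bp of a ranked summit, beside 0.946% of all genes. Both added sites are in introns and lay far from ranked summits, 9926.5 bp in nca-1 and 985.5 bp in slo-2. They are shown to give their differences from the exact pattern, T1C in nca-1, and T1C and A10G in slo-2, with positions counted from 1 at the 5' end of the pattern on the strand of the gene:
nca-1 relaxed site, chrIV:6176202-6176231, minus strand: ctaaaataggCCCCGGGGGAgcatgaagta
slo-2 relaxed site, chrX:11402423-11402452, minus strand: gttgctcgtgCCCCTTGGGGaagttttcat

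The windows of unc-129, madd-4, unc-8, glr-5 and avr-15 held neither pattern, which says only that these letters are not in these windows.

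Ranked summits were found in 6 of the 10 windows, 18 in all, beside 64.6% of all gene windows with at least 1. The 6 genes were madd-4, del-1, unc-8, slo-2, glr-4 and avr-15, and the windows of unc-129, dbl-1, nca-1 and glr-5 held none. Per 10 kb of window there were 1.56 ranked summits, against 3.09 over all genes. The median signal of the 18 was 26.1, against 26.8 for the whole ranked list, and their IDR ran between 0.125 and 0.909. None of the 18 had an IDR of 0.05 or less, which 3.80% of all ranked peaks had, and 4 of the 18 (22.2%) had one of 0.5 or less, against 14.1% of all. The 4 include 2 neighbouring avr-15 summits, both with an IDR of 0.258, which are read below as 1 place, so their share is not read as an excess. In the other ranked list of both replicates (27217 peaks), 8 of the 10 windows held a summit, beside 61.2% of all gene windows, with none in unc-129 and glr-4. These shares come from longer windows that held fewer ranked summits per 10 kb.

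**Figure D1:**
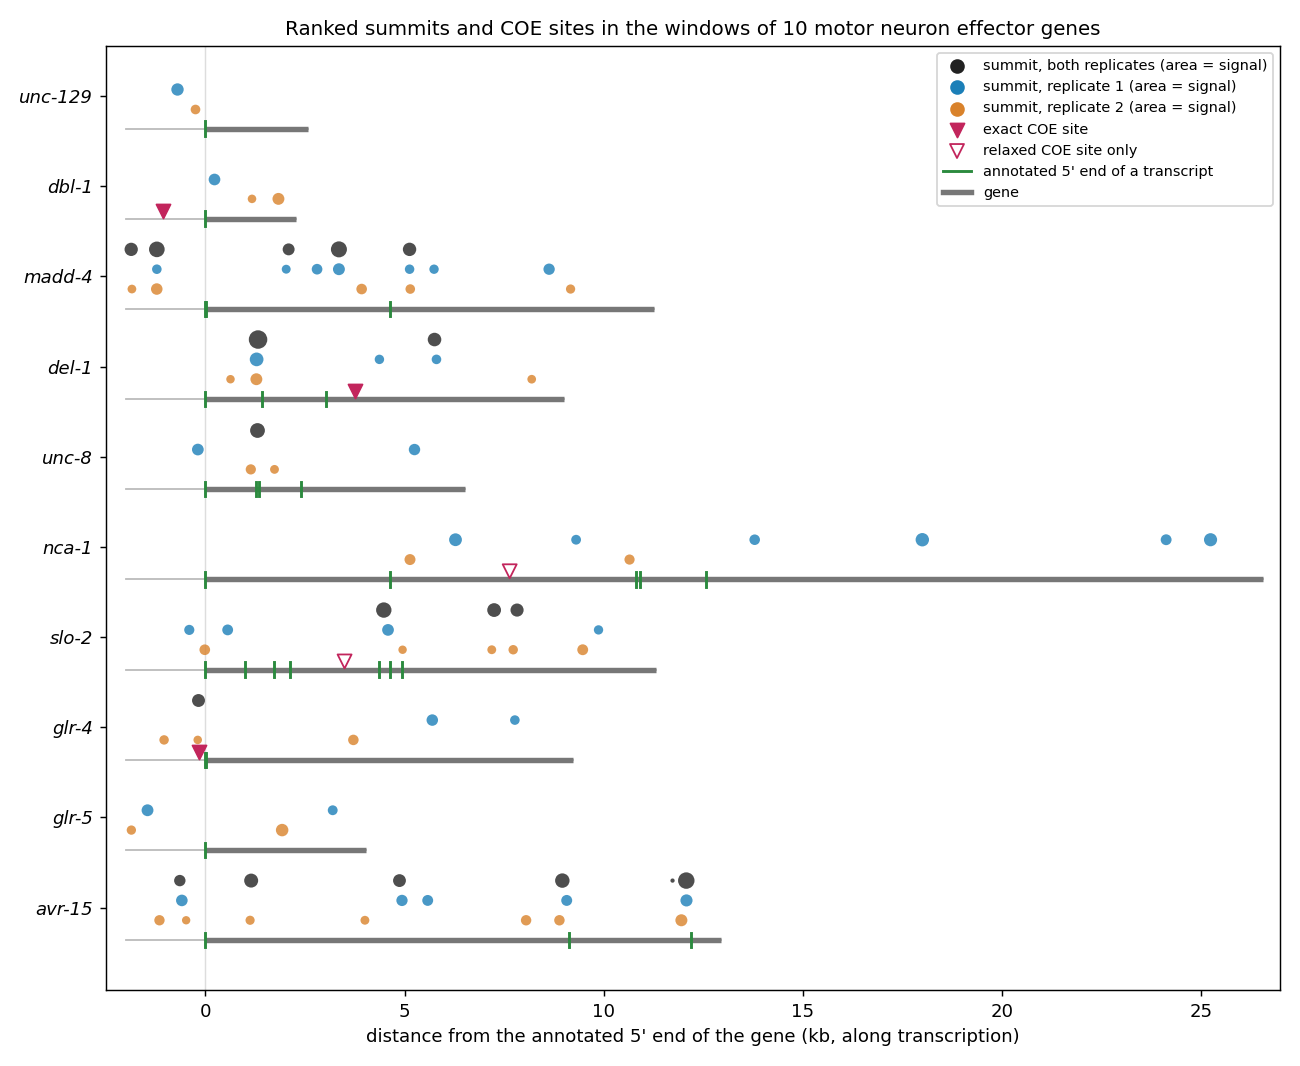
Summits of the ranked list of both replicates (black), of replicate 1 (blue) and of replicate 2 (orange) along each gene, in kb from its annotated 5' end, with the area of a point proportional to the deposited signal; thin and thick bars show 2000 bp upstream and the gene, green ticks annotated 5' ends of transcripts, and triangles COE sites. Of the 3 filled triangles, 1 has a black point beside it, at glr-4, and the largest black point is the del-1 summit with a signal of 47.7, next to a later 5' end.

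Among the secreted signals, unc-129 encodes a ligand of the TGF-beta family that guides motor axons to the dorsal side. The gene spans chromosome IV from 9002839 to 9005410 on the minus strand, and its window held no ranked summit. Replicate 1 had 1 summit, 703 bp upstream of the 5' end (signal 21.3, rank 5851 of 33914), and replicate 2 had 1, 256 bp upstream (signal 13.001, rank 20727 of 34079). Both were intergenic and upstream, but the 2 peaks did not overlap.

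The gene dbl-1 encodes the BMP-like ligand that is made in neurons of the nerve cord and sets body size. It lies on chromosome V from 6758135 to 6760418 on the plus strand, and held no ranked summit either. Replicate 1 had 1 summit, in a coding exon 224 bp downstream of the 5' end (signal 18.99, rank 9645). Replicate 2 had 2, in a coding exon at 1169 bp (signal 10.2, rank 31002) and in the 3' UTR at 1833 bp (signal 19.8, rank 4868). No position was shared by the replicates, and the exact COE site upstream lay outside all of these peaks.

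The gene madd-4 encodes a secreted ADAMTS-like protein, punctin, which motor neurons release to gather neurotransmitter receptors on muscle. It is found on chromosome I from 8931033 to 8942292 on the minus strand. Its window held 5 ranked summits, with signals of 24.6 at 1865 bp upstream (summit 8944157, rank 18185), 34.1 at 1221 bp upstream (8943513, rank 6767), 19.9 at 2089 bp downstream (8940203, rank 23271), 35.7 at 3352 bp (8938940, rank 5482) and 25.0 at 5126 bp (8937166, rank 17718). The first and second were intergenic, the third in a coding exon and the other two in introns, the last of them 485 bp downstream of a later 5' end.

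Of these 5 madd-4 peaks, 2 overlapped a peak in each replicate's ranked list, those at 1221 bp upstream (IDR 0.802) and 5126 bp downstream (IDR 0.909). At 1221 bp upstream, replicate 1 had a signal of 12.8 (rank 27501) and replicate 2 of 18.5 (rank 6559), with summits 0 and 2 bp from that of the ranked list. At 5126 bp downstream the signals were 12.5 (rank 28228) and 12.8 (rank 21307). The peak of highest signal, at 3352 bp, had a partner in replicate 1 (19.8, rank 8229) and none in replicate 2. The summit at 1865 bp upstream had a partner in replicate 2 alone (10.7, rank 29437), and that at 2089 bp downstream in replicate 1 alone (11.1, rank 32818). Further summits were found in 1 replicate each: in replicate 1 at 2803 bp (15.8, rank 17442), 5741 bp (12.2, rank 29150) and 8631 bp (17.9, rank 11951), and in replicate 2 at 3923 bp (15.7, rank 12334) and 9170 bp (11.9, rank 24702). With 5 ranked summits, the madd-4 window held about what the density over all gene windows gives for its length, 4.10.

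Among the channels, del-1 encodes a subunit of a DEG/ENaC sodium channel found in ventral cord motor neurons. It lies on chromosome X from 14268081 to 14277082 on the plus strand and had the ranked summit of highest signal of the 10 genes. This peak, chromosome X from 14269270 to 14269533 with its summit at 14269402, had a signal of 47.7, rank 1531 of 30297, and an IDR of 0.125. Both replicates had an overlapping peak, with a signal of 26.2 (rank 2243) in replicate 1 and 19.7 (rank 5011) in replicate 2, and summits 36 and 42 bp from that of the ranked list. The summit lies in an intron, 1321 bp downstream of the first annotated 5' end and 87 bp upstream of the second, where shorter transcripts begin. It was thus close to a later beginning of the gene and not to the first.

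Among the 12902 genes with a ranked summit, 11.5% had a highest signal at or above that of del-1. Among main peaks 25 of 631 had a signal at or below 47.7, so the main list holds some peaks of lower signal, down to 2.18. The median of the main list was 81.5, and each main peak had an IDR of at most 0.00996, against 0.125 for the del-1 peak. The 101 bases around the summit hold no exact COE site, but a sequence with 1 of 8 fixed bases changed, G8T, whose centre lay 13.5 bp from the ranked summit and 22.5 and 28.5 bp from those of replicates 1 and 2. This search with 1 mismatch was added after the values were seen. Such sequences are common: 40.5% of all gene windows hold one or an exact site, and 3.83% of all ranked summits have one within 100 bp. The windows of madd-4, unc-8 and nca-1 held 5, 4 and 4 with exactly 1 mismatch, beside 2 in del-1. Some also lay within 100 bp of weaker summits of replicate 2 alone, in madd-4 (signal 15.7) and unc-8 (signal 10.9). Counted by gene, 2 of the 10, del-1 and glr-4, had such a sequence or an exact site within 100 bp of a ranked summit, beside 5.5% of all genes. The bases are given because this is the strongest peak of the set and lies in both replicates, with the changed site in capitals:
del-1 ranked summit, chrX:14269352-14269452, plus strand: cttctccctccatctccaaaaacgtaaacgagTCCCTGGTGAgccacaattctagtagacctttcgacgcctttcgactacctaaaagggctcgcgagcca

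The second ranked summit of del-1, in a coding exon 5753 bp downstream of the first 5' end, had a signal of 25.6 (summit 14273834, rank 16784) and a partner in replicate 1 alone (12.8, rank 27235). Replicate 1 also had a summit at 4369 bp (12.4, rank 28601), and replicate 2 had summits at 629 bp (10.003, rank 31723) and 8194 bp (10.5, rank 29923). These were among the weaker summits of each replicate's list, far below the peak at 1321 bp.

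The gene unc-8 encodes another DEG/ENaC subunit of motor neurons. It lies on chromosome IV from 7197153 to 7203660 on the plus strand and had 1 ranked summit, at 7198439, with a signal of 30.4 (rank 10440). The summit was in a coding exon, 1286 bp downstream of the first 5' end and 7 bp downstream of a later one. Replicate 2 had an overlapping peak (14.6, rank 15509), whose summit was 147 bp away, and replicate 1 had none. The other summits were single: in replicate 1 at 191 bp upstream (19.1, rank 9357) and 5250 bp downstream (18.1, rank 11394), and in replicate 2 at 1734 bp (10.9, rank 28482). As in del-1, the ranked summit lay at a later 5' end.

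The gene nca-1 encodes a sodium leak channel of the NALCN family, which sets the resting excitability of neurons. It has the longest window, 28552 bp on chromosome IV, which also touches 70 annotated piRNA genes and no other protein-coding gene. This window held no ranked summit, where the density over all gene windows gives 8.82 for this length. That density averages windows with a median of 4027 bp, in which the 2000 bp upstream weigh more than in this one. The other ranked list of both replicates had 3 summits here. Replicate 1 had 6 summits, at 6280 bp (signal 22.9, rank 4298), 9309 bp (13.4, rank 25467), 13794 bp (15.5, rank 18378), 18004 bp (25.04, rank 2769), 24128 bp (16.4, rank 15693) and 25243 bp (24.1, rank 3354). Replicate 2 had 2, at 5137 bp (16.8, rank 9669) and 10651 bp (14.5, rank 15693). No position was shared, although 3 of the replicate 1 summits were among the higher ones of that list, and nca-1 was the gene with the most unequal counts between the replicates.

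The gene slo-2 encodes a large-conductance potassium channel that is gated by ions inside the cell. Located on chromosome X from 11394605 to 11405931 on the minus strand, with 7 annotated 5' ends, it had 3 ranked summits. The first, at 11401452 in an intron, had a signal of 33.0 (rank 7707), 109 bp downstream of a later 5' end, and an overlapping peak in replicate 1 (19.2, rank 9282) but not in replicate 2. The others, in coding exons 7250 and 7826 bp downstream of the first 5' end, had signals of 26.5 (summit 11398681, rank 15664) and 24.0 (11398105, rank 19008) and overlapped peaks of replicate 2 alone (10.9, rank 28489, and 12.4, rank 22871). No slo-2 peak was thus found in both replicates' lists.

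The remaining slo-2 summits were single as well. Replicate 1 had them at 406 bp upstream (14.3, rank 22150) and at 558 bp (16.4, rank 15926) and 9872 bp downstream (12.1, rank 29495). Replicate 2 had them at 17 bp upstream (15.8, rank 11992) and at 4951 bp (9.88, rank 32133) and 9475 bp downstream (16.5, rank 10400). Around the first 5' end each replicate therefore had a peak, but the peaks did not overlap.

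Among the receptors, glr-4 encodes a non-NMDA ionotropic glutamate receptor subunit. It lies on chromosome II from 7785100 to 7794322 on the minus strand and had 1 ranked summit, at 7794518 in the intergenic sequence 196 bp upstream of the 5' end. Its signal was 23.3, rank 19922 of 30297, and its IDR 0.909, the highest value among the 18, which several other weak peaks share. Replicate 2 had a peak with its summit 2 bp away (signal 10.1, rank 31304 of 34079), and replicate 1 had none there. This was the ranked summit beside an exact COE site, and in signal it stood low: of the 114 ranked summits with such a site within 100 bp, whose median signal was 35.9, 26 had a signal at or below it. The other ranked list of both replicates had no glr-4 summit at all. The bases around the summit are shown, with the COE site in capitals near their 3' end:
glr-4 ranked summit, chrII:7794468-7794568, minus strand: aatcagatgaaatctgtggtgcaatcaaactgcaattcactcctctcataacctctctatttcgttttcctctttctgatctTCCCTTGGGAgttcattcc

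The other glr-4 summits were found in 1 replicate each. Replicate 1 had them at 5697 bp (18.4, rank 10761) and 7771 bp downstream (12.8, rank 27345). Replicate 2 had them at 1039 bp upstream (12.5, rank 22752) and at 3715 bp downstream (15.4, rank 13131), this one in the 5' UTR of srlf-1, a gene nested in the glr-4 window.

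The gene glr-5, on chromosome V from 8716495 to 8720516 on the plus strand, encodes a related glutamate receptor subunit, and its window held no ranked summit. Replicate 1 had summits at 1455 bp upstream (19.6, rank 8627) and 3196 bp downstream (13.6, rank 24819). Replicate 2 had them at 1861 bp upstream (12.1, rank 24079) and 1926 bp downstream (21.8, rank 3178), this one in an intron and the highest replicate 2 signal of the 10 genes. None of the 4 peaks overlapped another.

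The gene avr-15 encodes a subunit of a glutamate-gated chloride channel, the class of channel that ivermectin opens. It lies on chromosome V from 13498780 to 13511718 on the minus strand. It had the most ranked summits, 6, of which 2 are read below as 1 place. Counted by place, avr-15 had no more than madd-4. The highest summit, at 13499642, had a signal of 37.8 (rank 4234). It lay in an intron 12076 bp downstream of the first 5' end and 108 bp upstream of the last. Replicate 1 had an overlapping peak (20.5, rank 7139) with its summit 5 bp away, and replicate 2 one (20.1, rank 4525) with its summit 123 bp away. A neighbouring ranked summit at 13499987 had a signal of 2.52 (rank 30092), among the lowest of the list, and its peak overlapped the same replicate 2 peak. The 2 should therefore be read as 1 place.

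A further avr-15 peak in both replicates had its summit at 13502755, 173 bp upstream of the second 5' end, with a signal of 29.1 (rank 12085) in the ranked list, 16.7 (rank 14891) in replicate 1 and 15.2 (rank 13503) in replicate 2. Its IDR was 0.579, and its replicate summits were 110 and 73 bp away. The third such peak, at 13512362, lay 644 bp upstream of the first 5' end inside an intron of semi-1. It had an IDR of 0.909 and a signal of 18.2 (rank 24279), with 18.7 (rank 10134) in replicate 1 and 9.72 (rank 32630) in replicate 2. The 2 peaks with the higher signals were thus each within 200 bp upstream of a later beginning of avr-15, while the third lay in a neighbouring gene.

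The ranked avr-15 summits at 1148 bp (13510570, signal 27.2, rank 14603) and 4873 bp (13506845, signal 23.0, rank 20261) overlapped a peak of replicate 2 alone (11.7, rank 25500) and of replicate 1 alone (17.7, rank 12319). The second is 224 bp downstream of the 5' end of R11G10.4, which lies within avr-15, and 358 bp from the nearest tRNA, snoRNA or snRNA gene. It was the only 1 of the 18 ranked summits within 500 bp of such a gene. The summits left were at 5582 bp in replicate 1 (16.6, rank 15340) and at 1155 bp upstream (14.9, rank 14347), 4005 bp (11.0, rank 28251) and 8053 bp (15.1, rank 13854) in replicate 2. The density over all gene windows gives 4.62 ranked summits for the length of this window.

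**Figure D2:**
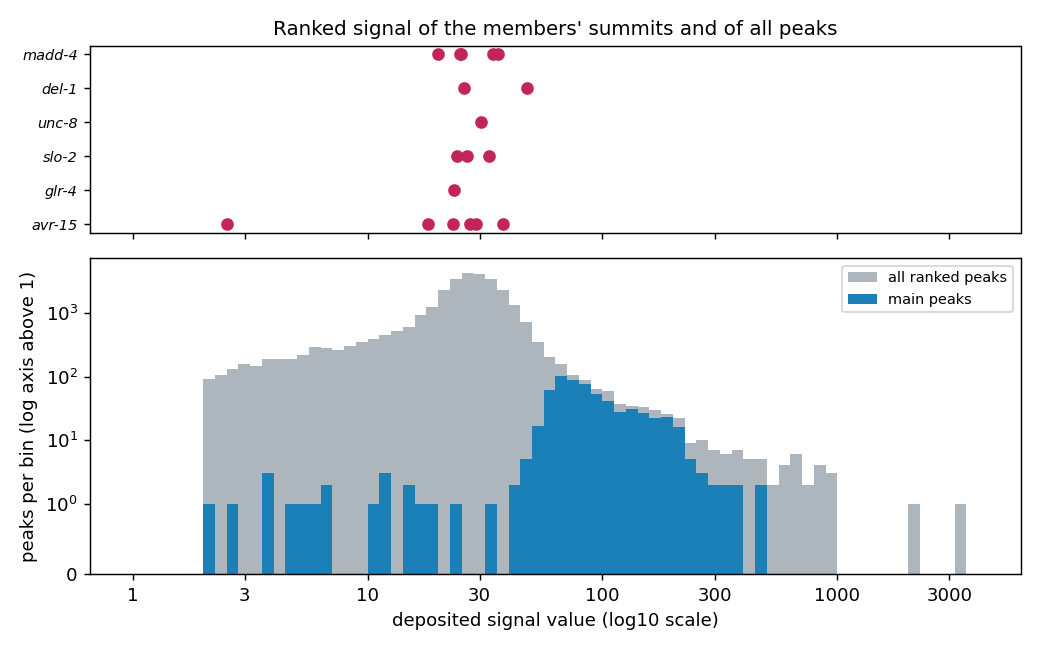
Deposited signal (log axis) of the 18 ranked summits in the windows, by gene, in the upper panel, above the number of all 30297 ranked peaks (grey) and of the 631 main peaks (blue) per bin of signal in the lower panel, whose vertical axis is logarithmic above 1. The 18 points lie between 2.52 and 47.7 with a median of 26.1, beside medians of 26.8 for the grey peaks and 81.5 for the blue ones.

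Of the 18 ranked summits, 9 had the 5' end of a coding transcript at 500 bp or less, against 26.2% of all ranked summits, and 17 of the 18 were nearest to a 5' end of the gene in whose window they lay. The 18 come from windows built on a coding gene and its 5' end, whereas the shares of all ranked summits cover the whole genome. Closeness to a 5' end, and few summits outside genes, are thus partly set by the window rule. In del-1, unc-8, slo-2 and avr-15 the summit of highest signal lay 87, 7, 109 and 108 bp from a later 5' end. Of these peaks, that of unc-8 overlapped a peak of replicate 2 alone, and that of slo-2 one of replicate 1 alone. How often the highest summit of a gene lies so close to a later 5' end was not counted over all genes. In glr-4 the summit of highest signal was 196 bp upstream of the first 5' end, and in madd-4 it was 1289 bp from the nearest. Genes with several annotated 5' ends offer more such positions, and del-1, unc-8, slo-2 and avr-15 had between 3 and 7. Of the 4 genes with no ranked summit, unc-129, dbl-1 and glr-5 have 1 annotated 5' end and nca-1 has 5. Coding exons held 5 of the 18 (27.8%, against 24.9% of all ranked summits), and introns held 10. Outside protein-coding genes lay 3 (16.7%), against 36.8% of all ranked summits. For introns, and for the 17 nearest to a 5' end of their own gene, no share over all ranked summits was computed. Neither count is thus read as a trait of these genes. The grouping near later 5' ends was noticed in the values and was not tested.

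Most summits in these windows were found in 1 replicate alone. Replicate 1 had 33 summits and replicate 2 had 32, and each list had at least 1 in 10 of 10 windows, where 74.1% and 74.7% of all gene windows had one. The windows of these genes are longer, and per 10 kb they held 2.85 summits of replicate 1 and 2.77 of replicate 2, against 3.46 of each over all genes. Of the replicate 1 summits, 6 (18.2%) had an overlapping peak in replicate 2, against 36.7% over the whole replicate 1 list, and of the replicate 2 summits 6 (18.8%) had one in replicate 1, against 36.5%. Likewise 6 of the 18 ranked peaks (33.3%) overlapped a peak in each replicate's list, against 45.8% of all ranked peaks. The 6 were 1 of del-1, 2 of madd-4 and 3 of avr-15, and their IDRs ran from 0.125 to 0.909, so an overlap did not mean a low IDR. A gene's presence in both lists, which held for all 10, did not mean a shared peak.

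**Figure D3:**
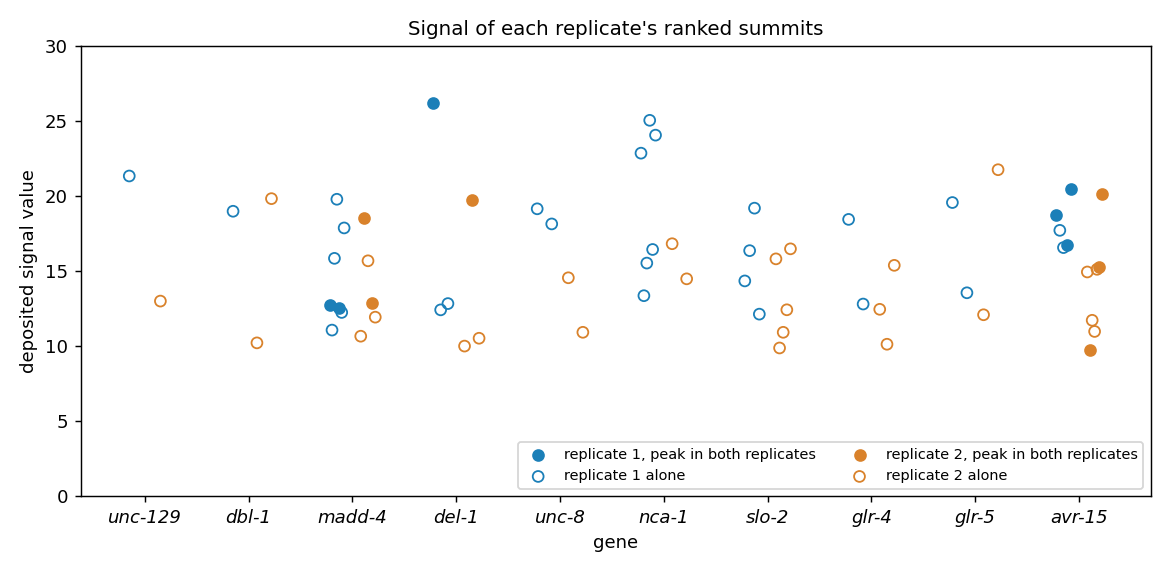
Deposited signal of every ranked summit in the 10 windows, for replicate 1 (blue) and replicate 2 (orange) by gene, filled where a peak of the other replicate overlaps. Filled points occur at madd-4, del-1 and avr-15 alone, and the highest filled point is at del-1 in replicate 1 (26.2) and at avr-15 in replicate 2 (20.1, beside 19.7 at del-1).

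**Figure D4:**
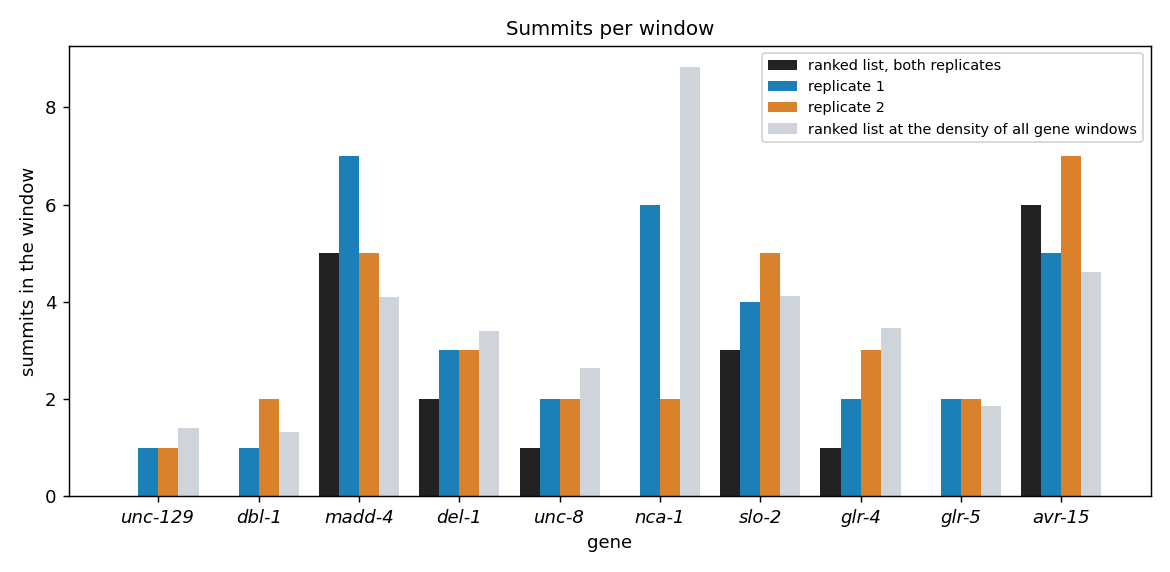
Number of summits in each window in the ranked list of both replicates (black), replicate 1 (blue) and replicate 2 (orange), beside the number that the density of ranked summits over all gene windows gives for a window of that length (grey). The black bars of madd-4 (5) and avr-15 (6, with 2 summits read as 1 place) stand above the grey ones (4.10 and 4.62). The gene nca-1 has no black bar beside a grey one of 8.82. The density averages windows that are mostly shorter than these.

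In 9 lists with 83 other genes, 3 genes held a main summit, beside 3.59% of all genes, and 59 held a ranked one, beside 64.6%. Of these lists, 1 holds 13 other genes of cholinergic motor neurons, and the rest hold families, pathways and partners of the 10 genes. The cholinergic list had 2 of the 3 genes with a main summit, cha-1 and unc-17, which share that summit, and 7 with a ranked one. The 5 partners and relatives of madd-4 had 1 with a main summit and 4 with a ranked one. The 27 other DEG/ENaC channel genes had 0 with a main summit and 19 with a ranked one, of highest signal 42.4, against 47.7 in del-1. The highest ranked signal was 73.5 in the TGF-beta list, 70.0 in that of glutamate receptors, 48.2 among the guidance genes and 46.2 among glutamate-gated chloride channels, so some relatives had higher signals than any of the 10 genes. Of 16 other TGF-beta ligand and pathway genes 0 had a main summit and 12 a ranked one, and of 8 other ionotropic glutamate receptor genes 0 and 5. The 5 other glutamate-gated chloride channel genes had 0 and 4, the NCA complex 0 of 4 and 3 of 4, the SLO channels and their partners 0 of 2 and 2 of 2, and the guidance genes unc-5, unc-6 and unc-40 0 of 3 and 3 of 3. The exact COE pattern was found in the windows of 7 of the 83 genes, beside 1.75% of all genes, and 4 of the 7 were in the cholinergic list. Known UNC-3 targets were partly found through this sequence, and window lengths were not compared here. The share is thus not an independent finding and was not tested. In cha-1 and unc-17, which share 1 site, the pattern lay within 100 bp of a ranked summit. In deg-1, nca-2, nlg-1, gar-2 and nlp-21, named here after their values were seen, it did not.

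The main summits of these lists lay in lev-9, cha-1 and unc-17. The gene lev-9 encodes a protein that muscle secretes and that clusters acetylcholine receptors. Its summit lay 603 bp upstream of the 5' end, with a signal of 224 (rank 17 among 631), and replicates 1 and 2 had signals of 135 and 97.6. It was at 0 bp from a tRNA, snoRNA or snRNA gene. The genes cha-1 and unc-17, of acetylcholine synthesis and vesicular transport, share 1 summit, with a signal of 89.4 (rank 256), and replicates 1 and 2 had signals of 47.3 and 40.6 there. The exact COE site TCCCCTGGGA on chromosome IV at 3621926 to 3621935 lay 43.5 bp from it. That locus is known as a target of UNC-3 in cholinergic neurons. The exact site of glr-4 lay 36.5 bp from its summit, whose signal was 23.3, against 43.5 bp and 89.4 at the cha-1 and unc-17 locus.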

How the data were processed

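Each file is a list of peaks that the authors deposited on assembly ce11, per the labels, with the authors' own signal value for each peak. Per the deposited notes, the lists are IDR ranked or IDR thresholded peaks; the ranked lists the authors deposited also hold IDR as −log10. The aligner, peak caller and its settings are not stated in the labels or files used here. All nuclear peaks ended within the WBcel235 chromosome lengths. Another 8 signal columns of the ranked lists carry no sample name and were not used.

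Summits were placed in gene windows, and COE patterns were searched on both strands of the RefSeq WBcel235 genome, from which the printed sequences come (Python 3.11.15, pandas 2.3.3, scipy 1.17.1). Coordinates are 1-based. Peaks counted as shared when they overlapped by at least 1 bp. Both counts were tested on simulated data, where 100% of windows had the right number of summits and 100% of planted sites were found. With 1 group of 2 replicates and no control there was no test, and intervals cover counting error only. Genes named are the 10 genes, and genes of the family and cholinergic lists with a main summit or with an exact COE site within 100 bp of a ranked summit. Neighbours that hold a described summit, or whose 5' end is nearest to it, are named too. Outside this rule, the genes of these lists with an exact COE site elsewhere in the window were named after their values were seen, and unc-5, unc-6 and unc-40 as the whole of their list. The genes and lists were chosen with earlier results of these data known.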

Additional observations from a re-analysis of the deposited data

How the results depend on the processing

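Of 34 alternative values, 21 stayed within 1.5 times the value reported and 13 did not. Of the 21, 2 leave out nca-1, also chosen after seeing the data; with 0 ranked summits there, they could not move and say nothing of stability. The count of genes with a main summit was 0 in all 6 alternatives run, which changed the upstream reach, the overlap rule, the list or the replicate. Genes with a ranked summit numbered 10 with 5000 bp upstream and 3 in the upstream part of the window alone, and ranked summits numbered 29 with 5000 bp upstream and 8 among the better-ranked 50% of the list. The list of 1 replicate, without replicate 1 or without replicate 2, gave 10 genes in both cases and between 32 and 33 summits. Ranked summits matched in both replicates numbered 3 when replicate summits had to lie within 100 bp. COE sites numbered 5 with the relaxed pattern and 19 with at most 1 mismatch, an alternative chosen after seeing the data. Sites within 100 bp of a summit numbered 2 with that pattern, and between 0 and 1 without replicate 2 or without replicate 1: the glr-4 site rests on replicate 2 alone. No paired analysis was possible because there is 1 group. The depth of the libraries is unknown.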
